A study of Mus musculus with 15 samples.

Results

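CD8 T cells that carried active caspase-1 at day 7 of acute graft-versus-host disease (aGvHD) were compared with CD8 T cells of untransplanted mice. Caspase-1 activity was read with Flica, a fluorescent probe that stays bound to the active enzyme, and cells were called Flica+ or Flica- in the sorter. The comparison used 6 of the 15 RNA-seq libraries of the series, 3 Flica+ and 3 control, chosen by their labels alone. The 3 CD8 Flica- libraries of the same day 7 give levels beside them. Control cells came from untreated C57Bl6 mice at day 0 and were themselves sorted as Flica-. The Flica+ and Flica- cells of day 7 were taken after transfer of C57Bl6 cells to allogeneic Balb/C recipients. The study's methods add that donors were 6 to 8 weeks old, that the recipients were lethally irradiated and received bone marrow together with the T cells, and that spleens were the source. They also give 1 or 2 mice per sort for the controls and 8 to 12 pooled mice per sort for aGvHD. No allele, transgene or drug is labelled in any of these groups. A difference between Flica+ and control cells therefore holds the transfer, the irradiated allogeneic host, the day, the pooling and the Flica gate at once, and these cannot be told apart. The Flica- libraries share all of these with the Flica+ libraries except the gate.

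A naive CD8 T cell circulates through lymph nodes with the help of Ccr7 and is held quiescent by transcription factors such as Tcf7 and Lef1. When its receptor meets antigen, as a donor T cell does in an allogeneic host, it divides, loses this programme and acquires granzymes, perforin, cytokines and, with continued stimulation, inhibitory receptors. Caspase-1 is the protease that inflammasomes activate, which is best known in macrophages and neutrophils, where it matures IL-1β and IL-18.

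The values are raw counts divided by the authors' size factors, called normalized counts here. The tables hold 4567 genes, and 3696 of them had enough counts to be tested between Flica+ and control cells. A gene has a row only where it passed the authors' own test and fold limit in at least 1 of 4 comparisons of these libraries, so the p-values below are not independent evidence that a listed gene changed, and a gene without a row is not thereby unchanged. This left 1 of 19 T cell identity genes with a row, Cd8a itself. Cd8a, the coreceptor used in the sort, was present in all libraries, at 21642, 18353 and 19250.0 in the controls and 11437, 11492 and 9348 in the Flica+ libraries (log2 fold change -0.88, SE 0.16, edgeR adjusted p = 0.0013). Its groups did not overlap, and the Flica- libraries lay between them at 13841, 14967 and 12817. Counts on listed genes ranged from 2632989 to 2917316 in the controls and from 7310375 to 11046043 in the Flica+ libraries. Chi-square per degree of freedom, about 1 for counting error alone, was 81.8 to 245.9 between pairs of Flica+ libraries and 14.9 to 22.1 between pairs of controls. No library was therefore a copy of another. This measure grows with the counts, which were higher in the Flica+ libraries, so it does not by itself show which group was less even. Flica+ replicate 3 held the highest value of the group in 916 of the genes called higher, replicate 1 in 465 and replicate 2 in 540. The authors' size factors for the Flica+ libraries were 0.836 to 0.853, below the 1.04 to 1.13 of the controls. Scaling by the listed genes alone (trimmed mean of M values, TMM) lowered the fold changes by a median of 1.89 on the log2 scale, so a rise of less than about that size changes sign with the scaling. TMM presumes that most genes do not differ, yet each gene here has a row because it differed in some comparison. It brought the median log2 fold change from 2.08 to -0.08. A sign or call that differs under TMM thus shows dependence on the scaling, and cannot decide which scaling is right.

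Of the 3696 genes tested, 2772 (75.0%) were called at an adjusted p below 0.05 by edgeR's quasi-likelihood test, 1921 (52.0%) higher and 851 (23.0%) lower in Flica+ cells. The median log2 fold change over all tested genes was 2.08. Under TMM scaling the split turned round, to 985 higher (26.1%) and 1497 lower (39.7%) of 3772, 65.8% in all. In 225 of the genes called higher all 3 controls had 0 counts, and in 152 of those called lower all 3 Flica+ libraries did. Against Flica- cells, 1040 of 3337 genes (31.2%) were called, 918 higher (27.5%) and 122 lower (3.66%) in Flica+ cells, and with TMM scaling 684 higher (19.8%) and 472 lower (13.6%) of 3462, 33.4% in all. These shares are the background for the list counts below, also where they are not repeated. The plot of fold change against level shows all tested genes, with some of the gene groups taken up below in colour.

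**Figure D1:**
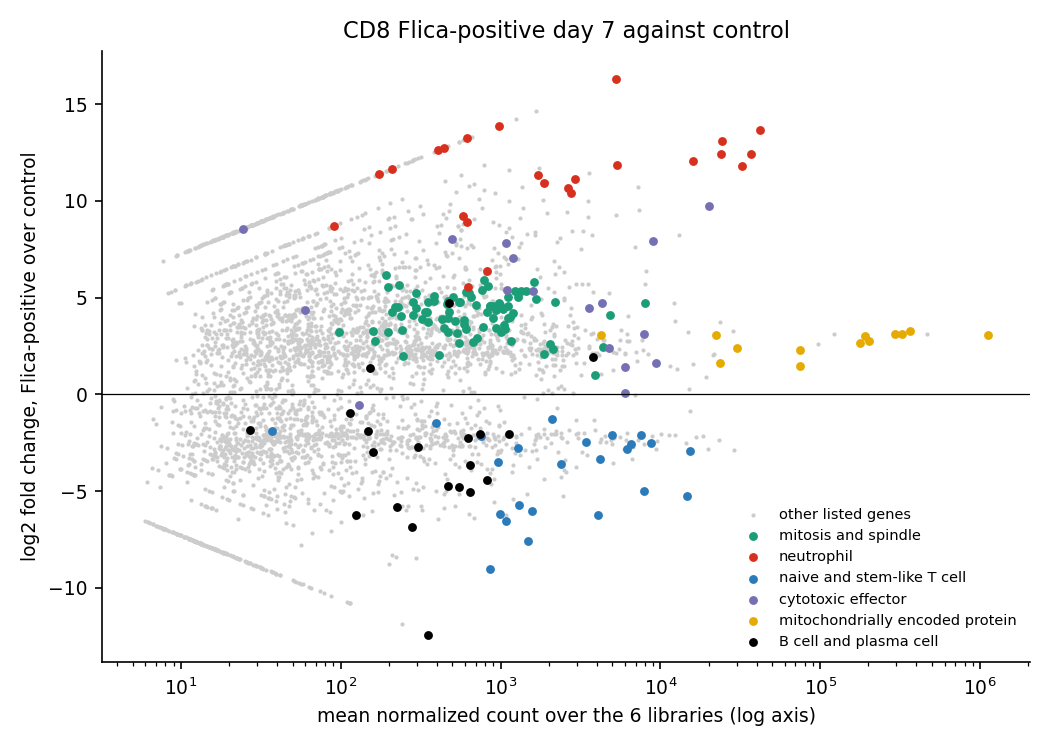
Each point is 1 of the 3696 tested genes, with its mean normalized count over the 3 control and 3 Flica+ libraries on a log axis and its fitted log2 fold change, Flica+ over control. Neutrophil genes lie between 5.57 and 16.33, mitosis genes between 1.03 and 6.19, and naive T cell genes between -9.03 and -1.26, and the straight lines at the upper and lower edge are genes with 0 counts in 1 group, whose fitted change has no fixed size. Under TMM scaling each value is lower by a median of 1.89, which takes mt-Nd5, mt-Nd6, Nkg7, Srgn and Racgap1 below 0.

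Genes of the naive programme fell. Of 30 naive and stem-like T cell genes, 24 had a row, 23 fell in Flica+ cells against a background of 23.0% of all tested genes called lower, and none rose. Their median log2 fold change was -3.12, and all 24 were lower under TMM scaling. In this bulk RNA, fewer cells of a type and less RNA per cell cannot be told apart. Tcf7, the transcription factor TCF1 of naive and stem-like cells, had 30058, 27184 and 28598 normalized counts in the controls and 917, 675 and 673 in the Flica+ libraries (log2 fold change -5.24, SE 0.20, edgeR adjusted p = 1.9e-06). Its groups did not overlap, as the plot of 12 genes by library shows, and all 24 members had Flica+ values entirely below the controls, as 31.5% of all tested genes did. Satb1, a chromatin organizer, fell to 2750.4, 2557 and 2469 from 15125, 14419 and 14878, and Als2cl from 14234, 14614 and 16902 to 597, 483 and 355. The deepest falls in the list were those of Rapgef4, an exchange factor for Rap proteins, Tdrp and Dapl1, with log2 fold changes of -9.03, -7.58 and -6.52. Pdlim4 had few counts and did not pass, at 66.1, 49.3 and 60.6 in the controls and 31.7, 15.3 and 0 in the Flica+ libraries (adjusted p = 0.19).

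In Flica- cells the naive list summed to 21037 to 25379 normalized counts, beside 18093 to 22767 in Flica+ cells and 172322 to 180537 in controls. Of 22 naive genes tested between the 2 gates, 5 were lower in Flica+ than in Flica- cells and 4 were higher, where 3.66% and 27.5% of all genes tested there were. With TMM scaling 9 were lower, among them Ccr7 and Als2cl, and 4 higher. The 5 lower ones without it, named after their values were seen, were Tcf7, Lef1, Satb1, Foxo1 and Il7r. Il7r, the IL-7 receptor chain, stood at 5507, 3633 and 3994 in Flica- and 1965, 1661 and 2126 in Flica+ libraries (log2 difference -1.19, SE 0.21, edgeR adjusted p = 0.0016). Tcf7 stood at 1678, 1354 and 1537 in the Flica- libraries (log2 difference -1.01, SE 0.21, edgeR adjusted p = 0.0052). Among the higher ones were Il6ra, Ramp1 and Treml2. Il6ra, the IL-6 receptor chain, was at 104, 129 and 182 in Flica- cells against 589, 950.0 and 1600.1 in Flica+ cells (log2 difference 2.91, SE 0.40, edgeR adjusted p = 3.8e-04). Neutrophils and monocytes are known to express Il6ra and Treml2, and their marker lists, given below, were also higher in the Flica+ libraries. The part of such cells in these differences was not tested.

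**Figure D2:**
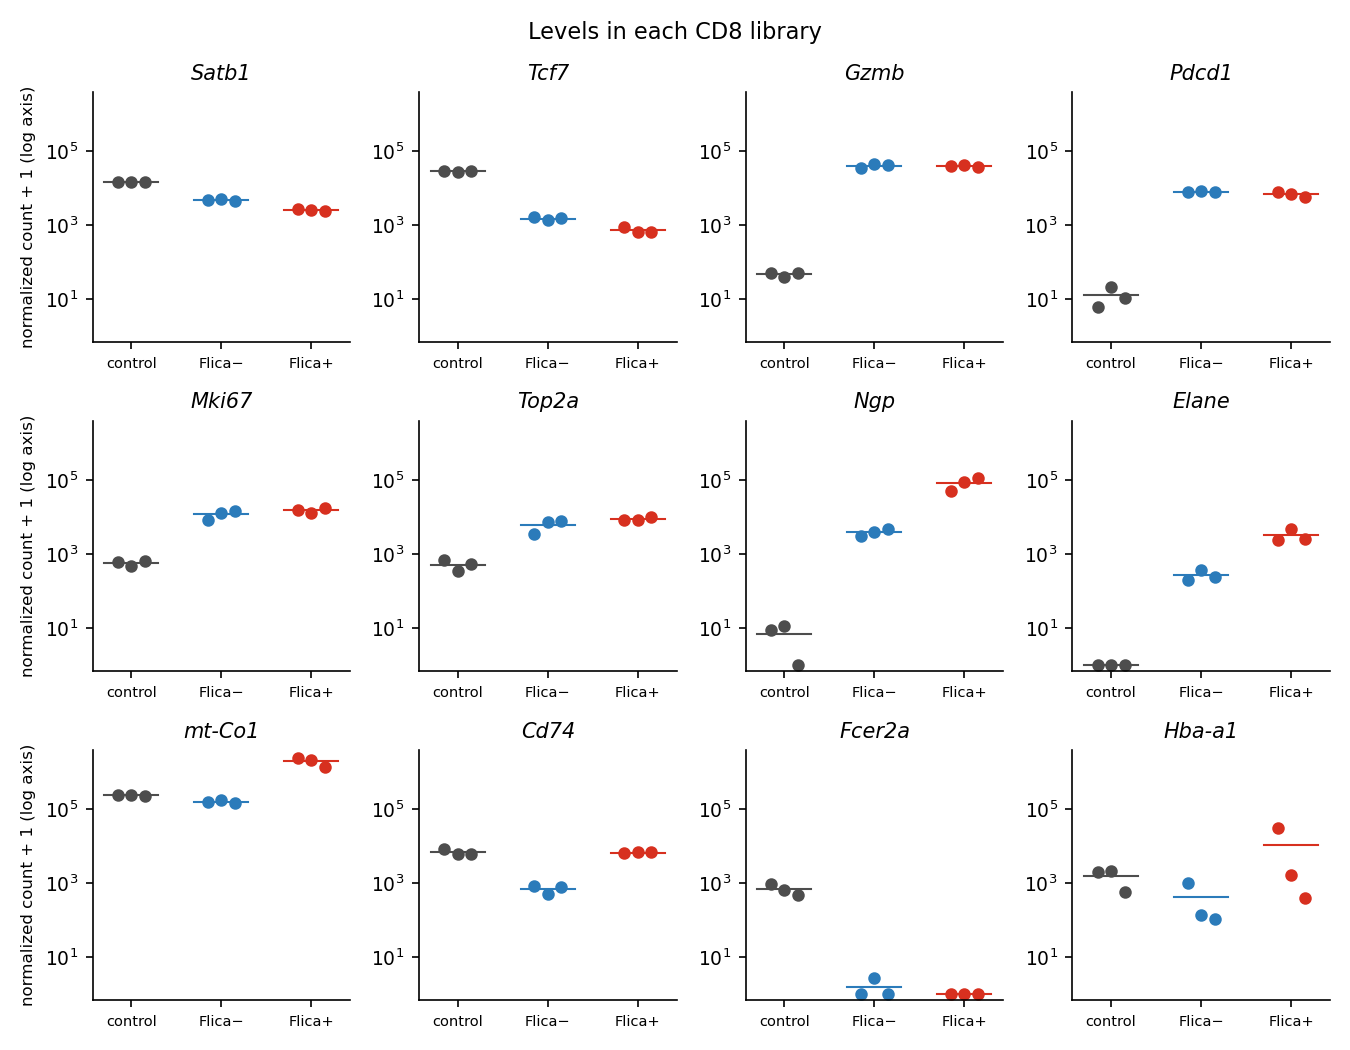
Normalized count plus 1 (log axis) of 12 genes in each of the 3 control, 3 Flica- and 3 Flica+ CD8 libraries, with points for libraries and bars for group means. Gzmb, Pdcd1, Mki67 and Top2a are at like levels in both day 7 groups, Ngp and Elane are highest in Flica+ and near or at 0 in controls, Cd74 is low in Flica- cells alone, and Hba-a1 is high in 1 Flica+ library.

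Effector genes of cytotoxic T cells rose. Of 24, 17 had a row, and 15 were higher in Flica+ cells against a background of 52.0% called higher, with a median log2 fold change of 4.71. Under TMM scaling 11 remained called higher, 2 (Ctsw and Gzmm, named after their values were seen) were called lower, and Nkg7 and Srgn changed sign without a call. Gzmb encodes granzyme B, the protease that killer cells deliver to their targets, and had 51.1, 40.3 and 51.0 normalized counts in the controls and 41045, 43149 and 36696 in Flica+ cells (log2 fold change 9.73, SE 0.23, edgeR adjusted p = 2.5e-07). Its 3 Flica+ values lay close together and were in a different range from the controls. Gzma and Gzmk, granzymes A and K, rose by 7.95 and 7.85 on the log2 scale. The chemokines Ccl3 and Ccl5 and the death ligand Fasl rose by 7.06, 3.11 and 8.05. Fasl was almost without counts in the controls, at 8.81, 1.79 and 0, and stood at 1164, 1002 and 811 in Flica+ cells. Nkg7, a granule protein, was already abundant at 4534, 4470.3 and 4602 in the controls and reached 15335, 16308 and 10838 in Flica+ cells (log2 fold change 1.64, SE 0.19, edgeR adjusted p = 9.8e-05), but was -0.23 under TMM scaling. Ctsw, which encodes cathepsin W, and Gzmm did not pass, with log2 fold changes of 0.07 and -0.56.

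The summed level of the cytotoxic genes was 113394 to 151922 in Flica+, 147848 to 166303 in Flica- and 16729 to 18844 in control libraries. Of 17 tested between the gates, 2 were lower in Flica+ cells and the others did not pass. The 2 were Fasl (log2 difference -0.81, SE 0.23, edgeR adjusted p = 0.021) and Ifng (log2 difference -0.61, SE 0.17, edgeR adjusted p = 0.022). Ifng, which encodes interferon-γ and was named after its values were seen, had 85.5, 62.7 and 80.8 counts in the controls, 5207, 4741 and 4357 in Flica- and 3249.9, 3435 and 2689 in Flica+ cells. Gzmb differed by -0.02 (SE 0.17, edgeR adjusted p = 0.93), less than the spread between libraries. Ccl5 was called lower as well when the replicate number entered the model as a block (edgeR adjusted p = 0.0059, against 0.071 without it). With TMM scaling 10 of the 17 were lower in Flica+ cells, so the count between the gates depends on the model and the scaling.

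Receptors of activation and inhibition rose as well. All 10 inhibitory receptors with a row, of 14 in the list, were called higher, where 52.0% of all tested genes were. Their median log2 fold change was 5.42 (7 called higher under TMM scaling, none lower). Pdcd1, which encodes PD-1, went from 5.29, 20.6 and 9.62 to 8149, 7197 and 5717 (log2 fold change 9.20, SE 0.49, edgeR adjusted p = 3.9e-06), and Havcr2, which encodes TIM-3, from 1.76, 15.2 and 0 to 3559, 4463 and 3747 (log2 fold change 9.39, SE 0.84, edgeR adjusted p = 2.8e-05). Lag3, a receptor for MHC class II, went from 35.2, 23.3 and 44.2 to 6968, 6611 and 5552 (log2 fold change 7.54, SE 0.30, edgeR adjusted p = 1.9e-06). In all 3 genes the lowest Flica+ library was far above the highest control. Ctla4, Tigit, Entpd1 and Cd244a, further inhibitory or regulatory surface proteins, rose by 5.70, 6.89, 4.61 and 5.14 on the log2 scale. Of the 10, Ctla4 and Tigit were lower in Flica+ than in Flica- cells, Ctla4 at 7093, 7195 and 6444 against 11528, 11936 and 10944 (log2 difference -0.73, SE 0.15, edgeR adjusted p = 0.0036), and none was higher. With TMM scaling 5 were lower.

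Of 22 activation and costimulation genes, 12 had a row and 10 rose, where 52.0% of all tested genes did. Their median was 2.29, which is near the 2.08 of all tested genes. Under TMM scaling 4 were called higher and 2 lower. Il2ra, the inducible chain of the IL-2 receptor, rose from 32.6, 23.3 and 5.77 to 1565, 1693 and 1787 (log2 fold change 6.34, SE 0.55, edgeR adjusted p = 2.3e-05). The costimulatory receptor Tnfrsf9 (4-1BB) rose by 3.79 and the activation antigen Ly6a (Sca-1) by 5.70. The receptor chain Il2rb, the integrin chain Itgb1 and the memory marker Ly6c2 rose by less, 1.57, 2.34 and 1.46, and under TMM scaling none of the 3 was called, with Il2rb and Ly6c2 below 0 at -0.32 and -0.48. Itgae, the integrin chain CD103 that naive CD8 cells carry, was the one member that fell, from 4022, 3356 and 3309 to 345, 125 and 45.4 (log2 fold change -4.37, SE 0.65, edgeR adjusted p = 4.8e-04). Cd69, an early activation marker named after its values were seen, did not pass, at 3646, 2616 and 1963 in the controls and 3575, 2604 and 2609 in Flica+ cells, which overlap.

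Among 25 transcription factors of effector and memory T cells, 18 had a row, 17 rose and 1 fell, beside 52.0% and 23.0% of all tested genes. Their median was 3.18 (11 higher and 1 lower under TMM scaling). Bhlhe40, a factor induced by T cell receptor signals, rose from 198, 197 and 179 to 15335, 17142 and 15863 (log2 fold change 6.39, SE 0.18, edgeR adjusted p = 2.9e-07). Prdm1, which encodes Blimp-1 of terminal effectors, rose from 52.9, 79.7 and 55.8 to 1134, 1330.2 and 1697, and Zbtb32 from 39.6, 30.4 and 15.4 to 2109, 1999 and 1435. Tox2, a factor of chronically stimulated T cells, had 1 count in all controls together and 354, 259 and 599 normalized counts in Flica+ cells. Id2, Nr4a1 and Nr4a2 rose by 2.40, 2.09 and 3.14 on the log2 scale, but Id2 (0.51, adjusted p = 0.12) and Nr4a1 (0.14, adjusted p = 0.64) were not called under TMM scaling. Id3, the Id protein of naive and memory cells, fell from 1153, 1102 and 817 to 59.8, 77.7 and 93.3 (log2 fold change -3.73, SE 0.32, edgeR adjusted p = 2.3e-05). Zbtb7b, the CD4 lineage factor ThPOK, was also higher in Flica+ cells than in controls, at 1515, 1614 and 1837 against 84.6, 127 and 48.1 (log2 fold change 4.25, SE 0.38, edgeR adjusted p = 2.8e-05). Neither of the 2 CD4 lineage genes with a row, Zbtb7b among them, was called between the gates (log2 differences from -0.096 to -0.034). Of the 18 factors, 7 were lower in Flica+ than in Flica- cells, among them Bhlhe40 (log2 difference -0.88, SE 0.17, edgeR adjusted p = 0.0029) and Nr4a2 (log2 difference -0.64, SE 0.16, edgeR adjusted p = 0.014), and with TMM scaling 11 were lower and 1 higher. The 2 that were higher, Batf3 and Irf8, were named after their values were seen and are factors that dendritic and myeloid cells also use. The call of Irf8 was lost with TMM scaling (0.08, adjusted p = 0.82). Batf3 was near 0 in both other groups, with 48.1, 50.6 and 52.6 in Flica+, 4.26, 0 and 0 in Flica- and 1.76, 0 and 0 in control libraries.

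Killer lectin-like receptors were called in both directions. Of 24, 15 were tested, 8 were higher and 4 lower (7 and 5 under TMM scaling), near the 52.0% and 23.0% of all tested genes. Klrc1 (NKG2A) rose from 67.8, 126 and 136 to 6439, 6153 and 4977 (log2 fold change 5.74, SE 0.32, edgeR adjusted p = 4.5e-06), and Klrg1, a marker of short-lived effectors, from 2.64, 0 and 11.5 to 406, 579 and 381. Klrk1 (NKG2D) rose by 2.32 and Klrb1b by 6.85, the former not called under TMM scaling (0.43). The 4 that fell were Ly49 genes, Klra6, Klra8, Klra9 and Klra10, all at low level, for example Klra9 at 12.3, 37.6 and 48.1 in the controls and 0 in all 3 Flica+ libraries, at least 9.22-fold lower. Reads of the Ly49 genes may be split between near-identical copies, so their single values are uncertain. Klra2 went the other way, from 2.64, 0 and 0 to 155, 260.2 and 381, and with Klra17 (named after its values were seen) was higher in Flica+ than in Flica- cells (log2 difference 3.71, SE 0.52, edgeR adjusted p = 4.4e-04 for Klra2). Klra2 and Klra17 are Ly49 genes found on myeloid cells, whose markers were also higher in Flica+ libraries, and the part of such cells in these 2 values was not tested. Of 7 natural killer cell genes tested, 5 rose and Klra8 fell, and Gzma, which effector CD8 cells share, held most of their sum in Flica+ cells. Klrd1, the CD94 partner chain, did not pass, at 2062, 1635 and 1805 and 1919, 1572 and 1130.1 (adjusted p = 0.33).

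Of 19 chemokine receptors, 13 had a row, 11 rose and 1 fell, beside 52.0% and 23.0% of all tested genes. Their median was 4.55 (7 higher and 2 lower under TMM scaling). Ccr2 and Cx3cr1, receptors of effector cells that enter inflamed tissue, rose by 4.95 and 7.62 on the log2 scale. Cx3cr1 was at 10.6, 7.16 and 1.92 in the controls and 1609.7, 1306 and 1069 in the Flica+ libraries. Cxcr3 and Cxcr6 rose by 1.34 and 1.76, but were -0.53 and -0.10 under TMM scaling. Cxcr5, the follicle-homing receptor, fell from 773, 679 and 773 to 161, 154 and 69.4 (log2 fold change -2.53, SE 0.39, edgeR adjusted p = 5.5e-04). It was at 110, 109 and 102 in Flica- cells. The B cell list given below also fell against the controls, and the part of B cells in the fall of Cxcr5 was not tested. Of the 12 receptors tested between the gates, those higher in Flica+ than in Flica- cells were Ccr1 (log2 difference 4.26, SE 0.40, edgeR adjusted p = 3.9e-05) and Cxcr2 (log2 difference 4.53, SE 0.47, edgeR adjusted p = 6.9e-05), receptors of neutrophils and monocytes. Cxcr2 was at 1.76, 3.58 and 0 in controls, 37.3, 74.6 and 38.0 in Flica- and 609.6, 1101 and 1772 in Flica+ cells.

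The genes of cell division were higher throughout. Of 90 mitosis and spindle genes, 84 had a row and all 84 were called higher, with a median log2 fold change of 4.28 (73 higher under TMM scaling and 1, Racgap1, lower). No control value of any of the 84 reached a Flica+ value, where 56.0% of all tested genes had Flica+ values entirely above the controls. Mki67, whose protein Ki-67 marks dividing cells, went from 618, 473 and 654 to 15715, 13073 and 17394 (log2 fold change 4.73, SE 0.22, edgeR adjusted p = 2.1e-06). Top2a, the topoisomerase that untangles sister chromatids, went from 683, 364 and 540.5 to 8391, 8703 and 10268 (log2 fold change 4.11, SE 0.27, edgeR adjusted p = 7.1e-06), and Ncapd2, a condensin subunit, from 1236, 1297 and 1548 to 7365, 6610.0 and 8369.8 (log2 fold change 2.45, SE 0.18, edgeR adjusted p = 1.1e-05). Ccnb2 (cyclin B2), Aurkb (Aurora B kinase) and Pbk (a mitotic kinase) rose by 5.81, 5.90 and 6.19. Racgap1, a regulator of cytokinesis, rose least, by 1.03, and was -0.86 under TMM scaling. In the controls, the summed level of the list was 11583 to 13359, against 133720 to 156346 in Flica+ and 69353 to 132311 in Flica- cells. Flica- replicate 1 was the lowest of the day 7 libraries. Between the gates 13 of 84 were higher in Flica+ cells, but 2 with TMM scaling, and none of Mki67, Top2a and Ncapd2 passed.

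The promoters of these genes are shown because cell cycle genes are classically controlled through known letters, which part of these promoters carry. The cell cycle genes homology region (CHR, here TTTGAA) and the CCAAT box (here CCAAT) were searched on both strands in the 250 bases before each RefSeq start (GRCm38.p6). The 2 sets of letters can share an end base. Of 84 members, 67 matched a symbol and had 72 promoters. A CHR was found in 38.9% of them and in 16.0% of all 32851 promoters, and a CCAAT box in 66.7% against 33.8%. The CCAAT box was not particular to this list, at 58.6% of DNA replication and 65.2% of neutrophil promoters. The CHR stood in 13.8% and 17.4% of the promoters of those 2 lists. An E2F site (here TTCCCGCC), searched in the same way, stood in 1.39% of the mitosis promoters and 1.86% of all promoters. It stood in 10.3% of the DNA replication promoters. A match is a description of the letters, not of binding. The windows of Mki67 (chr7:135716380-135716629, minus strand), Top2a (chr11:99024190-99024439, minus strand) and Ncapd2 (chr6:125191587-125191836, minus strand) held 2, 2 and 1 CHR and 3, 6 and 3 CCAAT boxes. They read 5′ to 3′ on the gene's strand, with both motifs in capitals:
Mki67: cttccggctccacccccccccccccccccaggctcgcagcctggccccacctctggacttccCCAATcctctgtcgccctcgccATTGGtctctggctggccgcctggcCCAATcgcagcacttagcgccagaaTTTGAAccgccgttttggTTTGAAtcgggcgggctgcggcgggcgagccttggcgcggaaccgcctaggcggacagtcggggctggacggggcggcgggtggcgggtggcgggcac
Top2a: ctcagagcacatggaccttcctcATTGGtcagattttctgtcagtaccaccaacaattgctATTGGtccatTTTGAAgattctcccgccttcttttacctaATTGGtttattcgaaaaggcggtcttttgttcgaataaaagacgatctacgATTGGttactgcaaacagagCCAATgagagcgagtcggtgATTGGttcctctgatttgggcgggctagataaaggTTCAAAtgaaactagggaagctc
Ncapd2: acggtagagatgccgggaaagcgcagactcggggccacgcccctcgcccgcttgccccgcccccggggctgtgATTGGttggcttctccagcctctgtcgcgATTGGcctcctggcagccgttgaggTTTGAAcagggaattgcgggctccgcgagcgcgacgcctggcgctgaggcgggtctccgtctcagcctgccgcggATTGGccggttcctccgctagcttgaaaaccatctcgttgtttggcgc

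DNA replication genes moved with the mitosis genes. All 28 with a row, of 51, were called higher, where 52.0% of all tested genes were. Their median was 3.35 (19 higher and none lower under TMM scaling). Rrm2, the inducible subunit of the enzyme that makes deoxynucleotides, rose from 217, 124 and 107 to 4801, 4657 and 4986 (log2 fold change 5.01, SE 0.31, edgeR adjusted p = 5.8e-06), and Mcm5, a subunit of the replicative helicase, from 1032, 995 and 891 to 5313, 5027 and 5176 (log2 fold change 2.41, SE 0.16, edgeR adjusted p = 7.4e-06). Mcm5 was not called under TMM scaling (0.51, adjusted p = 0.074). The factors E2f2, E2f7 and E2f8 rose by 3.55, 6.76 and 6.20. Against Flica- cells 3 of 28 were higher, Rrm2 (log2 difference 0.93, SE 0.28, edgeR adjusted p = 0.03), Rrm1 and Dut (the last named after its values were seen), all enzymes of deoxynucleotide supply, and none with TMM scaling. Histone genes whose messages normally lack a poly(A) tail were taken as a list chosen after the names in the tables were seen, and the libraries were made from oligo-dT captured RNA. Of 27, 18 were higher and 1 (H2ac19) lower, beside 52.0% and 23.0% of all tested genes. Without Flica+ replicate 1, 11 were higher, and under TMM scaling none was higher and 5 were lower. The fall of H2ac19 was lost on leaving out any library but Flica+ replicate 1 (adjusted p up to 0.12, without control replicate 1). H2bc4 was at 88.1, 92.2 and 0 in controls and 918, 813 and 784 in Flica+ cells, and H1f2 at 484, 251 and 221 and 1777, 1328 and 1272. Histone genes include near-identical copies, and reads may be split between them.

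Genes of energy supply are given in 2 groups. The 7 glycolysis genes with a row, of 25, were all higher, with a median of 2.25 (3 under TMM scaling, none lower), near the 2.08 of all tested genes. Gapdh went from 8976, 8267 and 7987 to 34185, 35456 and 33907 (log2 fold change 2.04, SE 0.14, edgeR adjusted p = 9.6e-06), and Hk2, the hexokinase of dividing cells, from 92.5, 70.7 and 124 to 909.8, 1213 and 1403 (log2 fold change 3.62, SE 0.33, edgeR adjusted p = 3.1e-05). Under TMM scaling Gapdh was not called (0.13, adjusted p = 0.62), nor were Pfkfb4, Pgam1 and Tpi1. Slc16a3, the lactate exporter MCT4, went from 36.1, 20.6 and 72.1 to 832, 1286 and 1509 (log2 fold change 4.81, SE 0.52, edgeR adjusted p = 7.3e-05). Gapdh and Hk2 did not differ between the gates by the test (0.26 and 0.31), while Hk3 (3.54), Pfkfb4 (3.77), Slc16a3 (2.09), Pgam1 (1.04) and Tpi1 (0.73) were higher in Flica+ cells. With TMM scaling Pgam1 (0.47, adjusted p = 0.099) and Tpi1 (0.19, adjusted p = 0.5) lost that call. Hk3, a hexokinase of myeloid cells, was at 142, 250.1 and 177 in Flica- and 1607, 2768 and 2265 in Flica+ cells, and the part of such cells in these differences was not tested.

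The transcripts of the 13 proteins encoded by mitochondrial DNA were all called higher, with a median of 3.01 (8 under TMM scaling, where mt-Nd5 and mt-Nd6, named after their values were seen, lay below 0 at -0.38 and -0.24). They took 48.8, 45.8 and 40.6% of the listed counts in Flica+ replicates 1, 2 and 3, 24.9 to 27.2% in controls and 14.3 to 15.1% in Flica- cells. mt-Co2, a cytochrome c oxidase subunit, had 70797, 68006 and 65217 counts in the controls, 46016, 49088 and 46635 in Flica- and 809733, 704015 and 461583 in Flica+ cells (log2 fold change 3.28, SE 0.24, edgeR adjusted p = 1.1e-05). mt-Nd1, a complex I subunit, had 45680.2, 40698 and 39367, 22431, 20965 and 21953 and 419486, 329051 and 261353 in the same order (log2 fold change 3.01, SE 0.21, edgeR adjusted p = 1.0e-05). In these genes the Flica- cells lay below the controls and the Flica+ cells above them, so the 2 day 7 groups stood on opposite sides. At the authors' size factors and with Flica+ cells called against both groups, this held for 80 of 4567 listed genes, while 0 had the reverse pattern. At that scaling more genes were called higher than lower, 52.0% and 23.0% against controls and 27.5% and 3.66% between the gates. The 80 were not counted again under TMM scaling. All 13 were higher in Flica+ than in Flica- cells (median 3.76), also with TMM scaling. Among the Flica+ libraries their share was highest in replicate 1, where the share of the neutrophil list given below was lowest. Both are shares of the same listed counts, so a rise of 1 lowers the other. The part of neutrophils or other cells in the mitochondrial values was not tested. The paper reports that most Flica+ T cells took up a dye that enters cells with damaged membranes. Flica- cells took up little or none. Cell viability and RNA quality were not analysed here, and the part of damaged cells was not tested either. The high rows Gm10925, Gm28661, Gm28437 and Gm29216 are nuclear copies of mitochondrial genes, and reads cannot be assigned between them and the mitochondrial genes with certainty. Of nuclear-encoded subunits of the respiratory chain, 3 had a row and Ndufb9 alone rose (log2 fold change 2.05, SE 0.38, edgeR adjusted p = 0.0016), with none called under TMM scaling.

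Neutrophil genes rose by far more than the T cell lists above. Of 25, 24 had a row and all 24 were called higher, with a median log2 fold change of 11.73, or 10.55 when the 7 genes without any control count are set to their lower bound. All 24 were also higher than in Flica- cells, by 3.88 to 5.39 on the log2 scale, and all of these calls held with TMM scaling. Ngp, a granule protein of neutrophils, was at 7.93, 10.7 and 0 in the controls, 3175, 4011 and 4944 in Flica- and 49998, 88047 and 114639.6 in Flica+ cells (log2 fold change 13.67, SE 0.87, edgeR adjusted p = 6.3e-06). Chil3, a chitinase-like secreted protein, was at 17.6, 3.58 and 19.2, 2506, 5174 and 4857 and 37994, 85895 and 97669 (log2 fold change 12.41, SE 0.74, edgeR adjusted p = 5.4e-06). Ltf, which encodes lactoferrin, was at 8.81, 0 and 7.69, 1493, 2731 and 2601 and 26707, 52774 and 66149. In each of these genes the 3 groups form 3 separate steps. Camp, the cathelicidin precursor, had 0 counts in all controls and 7657, 12013 and 12059 in Flica+ cells, at least 3863-fold higher. The list summed to 67.2 to 156 normalized counts in the controls, 14592 to 23641 in Flica- cells and 247462, 458645 and 514458 in Flica+ replicates 1, 2 and 3, which was 1.91, 3.83 and 5.88% of their listed counts. The purity of the sorts was not analysed here, and the part of neutrophils in these values was not tested.

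The promoters of 3 of the most abundant neutrophil genes are shown because C/EBP factors, whose member Cebpe drives granule genes, bind a known palindromic site. The letters TTGCNNAA were searched on both strands in the same 250 bases, and can overlap a CCAAT box. They occurred in 8 of 23 promoters of 22 members (34.8%) and in 9.56% of all promoters. The windows are Ngp (chr9:110419558-110419807, plus strand), Chil3 (chr3:106167565-106167814, minus strand) and S100a9 (chr3:90695722-90695971, minus strand), with 2, 0 and 1 matches in capitals:
Ngp: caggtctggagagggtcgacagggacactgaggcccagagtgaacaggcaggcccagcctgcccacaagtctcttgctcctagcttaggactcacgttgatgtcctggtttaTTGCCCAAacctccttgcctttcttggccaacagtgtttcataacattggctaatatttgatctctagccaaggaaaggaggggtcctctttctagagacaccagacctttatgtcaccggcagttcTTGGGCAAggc
Chil3: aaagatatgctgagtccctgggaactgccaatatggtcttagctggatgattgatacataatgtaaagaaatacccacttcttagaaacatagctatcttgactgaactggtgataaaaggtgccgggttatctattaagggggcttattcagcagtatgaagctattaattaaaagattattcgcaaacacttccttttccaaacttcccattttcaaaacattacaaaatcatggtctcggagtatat
S100a9: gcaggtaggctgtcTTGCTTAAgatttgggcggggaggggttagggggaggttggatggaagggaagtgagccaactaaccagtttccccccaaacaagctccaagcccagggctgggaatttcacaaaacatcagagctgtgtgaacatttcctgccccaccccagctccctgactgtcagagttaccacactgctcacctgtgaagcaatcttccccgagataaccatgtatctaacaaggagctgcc

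Genes of immature granulocytes rose with the mature ones. Of 9, 8 had a row, all higher than in the controls (median 12.42, or 8.69 with 5 genes at their bound) and all higher than in Flica- cells (median 3.56). Elane, Ctsg and Prtn3, proteases packed into granules at the promyelocyte stage, were at 2494, 4851 and 2643, 887, 1589 and 806 and 2735, 4642 and 3128 in the Flica+ libraries in replicate order. In the controls Elane and Ctsg had 0 counts, so they were at least 1216-fold and 399.6-fold higher. Mpo, myeloperoxidase, was at 0.881, 6.27 and 0, 519.9, 912 and 668 and 5258, 9925 and 6356 in control, Flica- and Flica+ cells (log2 fold change 11.46, SE 0.74, edgeR adjusted p = 6.7e-06). Cebpe, the factor named above, had 0 control counts and 560.4, 1050.1 and 739 in Flica+ cells, at least 286-fold higher. Flica+ replicate 2 was the highest of the 3 in Elane, Ctsg, Prtn3, Mpo and Cebpe, and in S100a9, while replicate 3 was the highest in Ngp, Chil3 and Ltf.

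Other myeloid markers followed at lower level. Of 22 macrophage and monocyte genes tested, 21 rose (median 5.32, 17 under TMM scaling), and 18 were higher than in Flica- cells. Of all genes tested in the 2 comparisons, 52.0% and 27.5% were higher. Lyz2, lysozyme of macrophages and granulocytes, was at 115, 89.5 and 51.0, 768, 1862 and 1592 and 14703, 33193 and 30754 in control, Flica- and Flica+ cells (log2 fold change 8.26, SE 0.49, edgeR adjusted p = 5.3e-06). Cd14, the coreceptor for lipopolysaccharide, was at 5.29, 3.58 and 26.9, 51.1, 102 and 132 and 1437, 2689 and 3938 (log2 fold change 7.82, SE 0.78, edgeR adjusted p = 4.9e-05), and C1qa, a complement subunit of tissue macrophages, was at 0 in the controls and 396, 198 and 193 in Flica+ cells. The integrin genes Itgam and Itgax, which activated T cells also express, were higher in both day 7 groups than in any control library and went opposite ways between the gates. Itgam was higher in Flica+ than in Flica- cells, 1211, 2001 and 2230.3 against 476, 703 and 513 (log2 difference 1.68, SE 0.28, edgeR adjusted p = 0.0011), and Itgax lower, 4875, 6025 and 4804 against 9556, 9238 and 6748 (log2 difference -0.70, SE 0.19, edgeR adjusted p = 0.017). Of 7 mast cell and basophil genes, 6 rose. The basophil proteases Prss34 and Mcpt8 had 0 control counts and 614, 1261 and 941 and 315, 451 and 397 in Flica+ cells, at least 343-fold and 142-fold higher, against 32.0, 48.5 and 23.3 and 16.0, 14.9 and 18.1 in Flica- cells. The basophil and mast cell list summed to 82.7 to 107 in controls, 97.5 to 165 in Flica- and 1830.1 to 2739 in Flica+ libraries. Of 5 eosinophil genes, 4 rose at low level, for example Siglecf at 84.4, 128 and 58.6, and Il5ra fell from 48.5, 26.0 and 31.7 to 5.86, 2.35 and 0, a call lost without Flica+ replicate 2 or any 1 control (adjusted p from 0.059 to 0.083). Of 2 endothelial and stromal genes with a row, both were higher, at under 100 normalized counts in every library, and neither was called with TMM scaling.

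**Figure D3:**
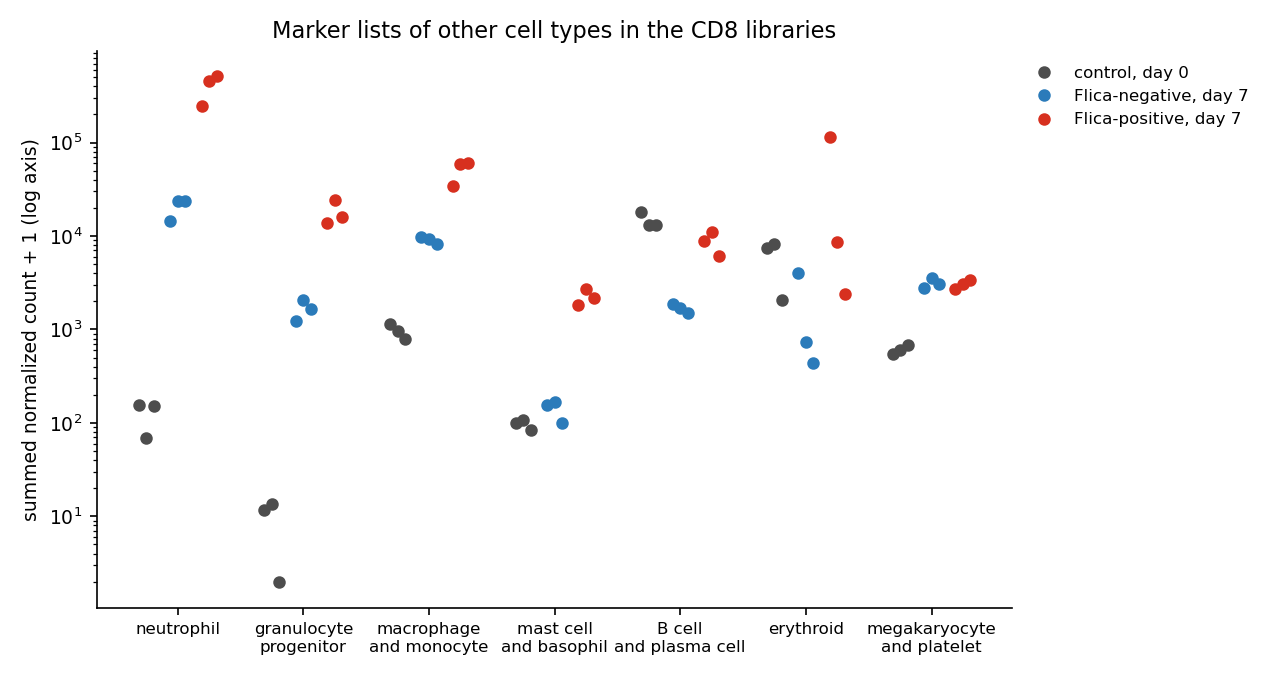
Summed normalized counts plus 1 (log axis) of the listed members of 7 marker lists in each control, Flica- and Flica+ CD8 library. The neutrophil sum is 67.2 to 156 in controls and 247462 to 514458 in Flica+ libraries, the B cell sum is lowest in Flica- cells, and the erythroid sum is high in Flica+ replicate 1 alone at 115239.

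Innate sensing and oxidant genes ran parallel to these markers. Of 22 Toll-like and C-type lectin receptor genes tested, 16 rose and 2 fell (11 and 5 under TMM scaling), beside 52.0% and 23.0% of all tested genes. Against Flica- cells 19 of 23 were higher, beside 27.5% of all genes tested there. Trem1, an amplifying receptor of neutrophils and monocytes, was at 8.81, 18.8 and 11.5 in controls, 45.8, 111 and 184 in Flica- and 1428, 2328 and 4049 in Flica+ cells (log2 fold change 7.62, SE 0.53, edgeR adjusted p = 9.6e-06). Clec12a, an inhibitory lectin of myeloid cells, was at 18.5, 9.85 and 20.2, 52.2, 114 and 128 and 829, 1801 and 1802. Tlr1 and Tlr12 fell, Tlr1 from 1812, 1832 and 1488 to 217, 198 and 271 (log2 fold change -2.90, SE 0.24, edgeR adjusted p = 1.8e-05), and were low in Flica- cells too. Of the superoxide and oxidative stress genes, 9 of 10 rose. Cybb, the catalytic subunit of the phagocyte oxidase, was at 286, 192 and 242, 560.4, 635 and 571 and 6129, 9147 and 12509.9 in control, Flica- and Flica+ cells (log2 fold change 5.27, SE 0.33, edgeR adjusted p = 5.8e-06). Txn1, thioredoxin, which dividing T cells use, rose from 748, 700.3 and 718 to 4830.2, 5186 and 4706, beside 3195, 3609 and 4089.8 in Flica- cells (log2 difference 0.43, SE 0.16, edgeR adjusted p = 0.071). The neutrophil and macrophage sums moved with Trem1, Clec12a and Cybb in the same libraries, and the part of those cells in these values was not tested.

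Most caspase, pyroptosis and IL-1 family genes rose against controls, and genes of the IL-1 and IL-18 family differed in both directions between the gates. Of 6 caspase and pyroptosis genes tested, 5 rose and Card6 fell (4 and 1 under TMM scaling), beside 52.0% and 23.0% of all tested genes. All 8 IL-1 and IL-18 family genes tested rose (7 under TMM scaling). Il18r1 and Il18rap, the 2 chains of the IL-18 receptor, rose by 2.15 and 3.11, Il18r1 without a call under TMM scaling (0.28, adjusted p = 0.43), and were lower in Flica+ than in Flica- cells, Il18r1 at 12069, 9217 and 8195 against 18367, 14419 and 13344 (log2 difference -0.65, SE 0.20, edgeR adjusted p = 0.032). Il1rl1, the IL-33 receptor ST2, had 1 count in all controls together and 1039.9, 773 and 865 in Flica+ cells, beside 1173, 1312 and 904 in Flica- cells. Il1r2, the decoy IL-1 receptor of neutrophils, and Il1b were instead higher in Flica+ than in Flica- cells, by 3.57 and 4.43. Il1b was at 26.4, 42.1 and 15.4, 35.2, 26.1 and 39.7 and 450.2, 646 and 1087 in control, Flica- and Flica+ cells. The inflammasome sensor and adaptor list had 9 of 13 members higher and 1, Ciita, lower (5 and 2 under TMM scaling), where 52.0% and 23.0% of all tested genes were. Against Flica- cells 11 were higher, 6 with TMM scaling, beside 27.5% of all genes tested there. Fc receptor and complement genes had 15 of 16 higher and Cr2 lower, and 14 of 15 were higher than in Flica- cells. The neutrophil and macrophage sums were also higher in Flica+ than in Flica- libraries, and the part of those cells in Il1b, Il1r2 and these lists was not tested.

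B cell genes fell against the controls. Of 24 B cell and plasma cell genes, 20 had a row, 15 fell and 2 rose, with a median of -2.86 (16 and 1 under TMM scaling). Fcer2a, the low-affinity IgE receptor of follicular B cells, had 961, 644 and 495 normalized counts in the controls and 0 in all Flica+ libraries, at least 197-fold lower. Cr2, complement receptor 2, fell from 663, 472 and 518 to 3.52, 0 and 10.8 (log2 fold change -6.82, SE 0.85, edgeR adjusted p = 1.7e-04), and Ighd, the IgD heavy chain, from 1982, 1410.4 and 1318 to 35.2, 113 and 75.3 (log2 fold change -4.40, SE 0.45, edgeR adjusted p = 5.4e-05). Cd22 and Cd72 fell by 2.04 and 2.05. These controls thus held B cell transcripts, summing to 13210.4 to 18246 normalized counts over the list, against 6047 to 11006 in Flica+ and 1484 to 1864 in Flica- libraries. The 2 that rose were Igkc and Jchain. Igkc, the κ constant region, went from 2049, 1389.8 and 1283 to 6218, 7961 and 3714 (log2 fold change 1.92, SE 0.31, edgeR adjusted p = 7.4e-04). Jchain, the joining chain of secreted antibodies, went from 46.7, 16.1 and 42.3 to 1009, 1045 and 695 (log2 fold change 4.70, SE 0.48, edgeR adjusted p = 5.1e-05). Under TMM scaling Igkc was 0.06 and not called. Cd79a, an antigen receptor chain named after its values were seen, was at 1566, 1007 and 1013 in controls, 16.0, 15.9 and 11.2 in Flica- and 45.7, 125 and 117 in Flica+ cells.

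The MHC class II genes Cd74, H2-Aa and H2-Ab1 differed between the 2 day 7 groups and did not pass between Flica+ cells and controls. Cd74, the invariant chain, was at 8373, 6400.1 and 6250.0 in controls, 850.1, 519 and 772 in Flica- and 6434, 6832 and 7040.0 in Flica+ cells. Flica+ cells overlapped the controls (log2 fold change -0.05, SE 0.17, edgeR adjusted p = 0.78) and were higher than Flica- cells (log2 difference 3.25, SE 0.22, edgeR adjusted p = 9.3e-06). H2-Aa was at 2747, 1795 and 1526, 254, 135 and 153 and 1893, 2476 and 2078 in the same order, and H2-Ab1 at 2737, 1809 and 1599, 347, 202 and 274 and 2979, 3004 and 2200.4. Under TMM scaling Cd74, H2-Aa and H2-Ab1 were called lower than in controls, at -1.96, -1.83 and -1.47. H2-DMb1, a class II gene named after its values were seen, differed from them. Its means were 232, 34.6 and 506 in control, Flica- and Flica+ cells. It was called higher in Flica+ cells than in controls (log2 fold change 1.13) and than in Flica- cells (log2 difference 3.86, edgeR adjusted p = 1.6e-04). Its values under TMM scaling and the other alternatives are not reported here. Ciita, the transactivator of these genes, was at 689.8, 446 and 458, 23.4, 44.8 and 46.6 and 274, 336 and 212, lower than in controls (log2 fold change -0.96, SE 0.33, edgeR adjusted p = 0.03), a call that was lost without Flica+ replicate 1, Flica+ replicate 3 or control replicate 1 (adjusted p = 0.059, 0.060 and 0.12). In the dendritic cell list, which shares Ciita and the class II genes, 4 of 11 rose, 2 fell and 5 did not pass (3 higher and 7 lower under TMM scaling). Flt3, the growth factor receptor of dendritic cells and progenitors, rose from 8.81, 5.37 and 0 to 222, 175 and 232 (log2 fold change 5.42, SE 1.03, edgeR adjusted p = 0.0018), and Ccr9, a gut-homing receptor of naive CD8 cells as well as plasmacytoid cells, fell from 2579.6, 2607 and 2465 to 31.7, 85.9 and 26.3 (log2 fold change -5.73, SE 0.47, edgeR adjusted p = 1.9e-05). B cell, dendritic cell and macrophage markers all bear on class II transcripts, and their part was not tested.

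Interferon-inducible genes moved both ways. Of 79, 28 had a row, 17 rose and 8 fell, near the 52.0% and 23.0% of all tested genes, with a median of 1.65, below the 2.08 of all tested genes (6 higher and 11 lower under TMM scaling). Among the 8 that fell, the guanylate-binding gene Gbp9 went from 4543, 4919.9 and 4951 to 985, 1274 and 1207 (log2 fold change -2.06, SE 0.17, edgeR adjusted p = 2.0e-05), and the p200 family genes Ifi213 from 4188, 4683 and 5085 to 464, 301 and 563 (log2 fold change -3.39, SE 0.26, edgeR adjusted p = 1.4e-05) and Ifi208 from 3741, 4186 and 4184 to 664, 505 and 381 (log2 fold change -2.97, SE 0.24, edgeR adjusted p = 1.7e-05). Ifit1bl1, Mx2, Usp18, Tgtp1 and Tgtp2 were the others, with log2 fold changes from -3.43 to -1.30. The calls of Mx2 and Usp18 were lost on leaving out most single libraries (adjusted p up to 0.16 for Mx2 without control replicate 1 and 0.13 for Usp18 without control replicate 2). Tgtp1 and Tgtp2 are near-identical GTPases, and reads may be split between them. The risers were led by the Ifitm family of membrane proteins. Ifitm1 went from 2.64, 7.16 and 0 to 2501, 3497 and 2327 (log2 fold change 9.65, SE 0.65, edgeR adjusted p = 8.2e-06) and was at 2783, 3832 and 2520.0 in Flica- cells. Ifitm2 had 0 control counts and was at least 207-fold higher. Ifitm3 and Ifitm6 also separated the gates, by 2.11 and 4.54. Ifitm6, a member that myeloid cells express, was at 1.76, 5.37 and 0 in controls, 185, 283 and 278 in Flica- and 4155, 6503 and 6776 in Flica+ cells, in step with the neutrophil sum, whose part was not tested. The interferon-stimulated response element (ISRE) stood in 65.2% of 23 promoters of 21 members, risers and fallers together, and in 2.98% of all promoters. In all, 16 of 28 were higher and 2 lower in Flica+ than in Flica- cells, 10 and 3 with TMM scaling.

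Red cell transcripts set 1 library apart. The globin genes Hba-a1, Hba-a2, Hbb-bs and Hbb-bt were at 21622 to 31093 in Flica+ replicate 1, at 1484 to 1758 in replicate 2 and at 249 to 407 in replicate 3, against 314 to 2186 in the controls. None passed, and without replicate 1 their log2 fold changes were -0.62 to -0.36 (Hba-a1 with all libraries, log2 fold change 2.79, SE 1.51, edgeR adjusted p = 0.13), and the α and β pairs are near-identical copies. Of 12 erythroid genes tested, 6 were called higher, near the 52.0% of all tested genes, and 3 under TMM scaling. Among them were Car1, carbonic anhydrase 1, from 0 to 844, 509 and 346, at least 207-fold higher, and Ank1, the red cell ankyrin, from 9.69, 2.69 and 0 to 464, 168 and 134. The order of the Flica+ libraries was the same in Car1, Ank1 and the globins. Without Flica+ replicate 3, all 12 were called higher, and without Flica+ replicate 1, 5 were. Of 5 megakaryocyte and platelet genes, 4 rose (1 under TMM scaling, where Itgb3 was not called), with Itgb3, which activated T cells also express, holding most of the sum, at 439, 489.8 and 554 in controls, 2729, 3481 and 3002 in Flica- and 2399, 2696 and 2779 in Flica+ cells. Vwf, von Willebrand factor, was at 2.64, 4.48 and 1.92, 1.07, 0 and 0.863 and 48.1, 137 and 111.

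Set side by side, the lists had different medians in the 2 comparisons. Cytotoxic, inhibitory receptor and mitosis genes had medians of 4.71, 5.42 and 4.28 against the controls and of -0.13, -0.13 and 0.62 between the gates, beside 0.51 over all 3337 genes tested there. Neutrophil, granulocyte progenitor, macrophage and mitochondrially encoded genes had medians of 4.40, 3.56, 3.92 and 3.76 between the gates. Naive T cell genes had a median of -3.12 against the controls and of -0.47 between the gates. The 2 comparisons share the Flica+ libraries, so these values are not independent of each other.

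**Figure D4:**
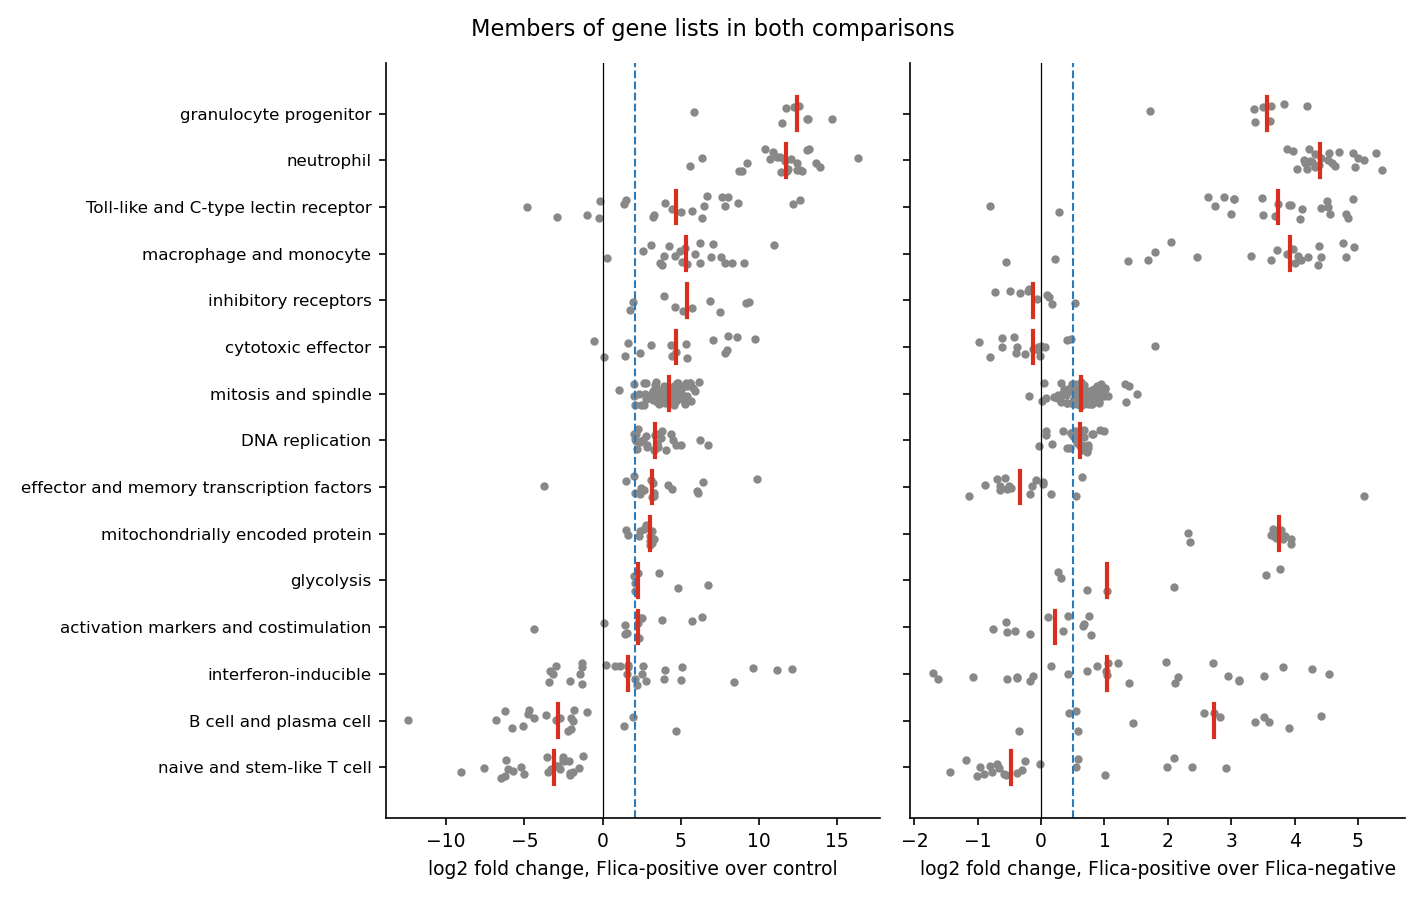
Points are the fitted log2 fold changes of the tested members of 15 gene lists, Flica+ over control on the left and Flica+ over Flica- on the right, with the list median as a red bar and the median of all tested genes (2.08 and 0.51) as a dashed line. The medians of granulocyte progenitor, neutrophil, macrophage and mitochondrially encoded genes lie right of the dashed line in both panels and those of cytotoxic and inhibitory receptor genes in the left panel, while some single members lie on the other side; TMM scaling moves every point left, by a median of 1.89 and 0.56.

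Among single genes with a mean of at least 100, the 10 largest rises were Camp, Elane, Gm11505, Wfdc21, Ngp, Alox5, Mmp25, Fpr2, Cstdc5 and Fcnb, and all but Ngp had 0 counts in every control. Gm11505 was at 2055, 3281 and 2185 in Flica+ cells, at least 916-fold higher. Alox5, 5-lipoxygenase of leukotriene synthesis, was at 869, 1304 and 1795, and Mmp25, a membrane metalloproteinase of neutrophils, at 898, 1495 and 1461, at least 483-fold and 469-fold higher. Cstdc5, of a family of near-identical stefin-like genes, was uneven at 344, 949 and 2357. The 10 largest falls were Fcer2a, Trat1, Syde1, A930002I21Rik, Rapgef4os2, B630019A10Rik, Rapgef4, BC106179, Klra13-ps and Lypd6b. Trat1, an adaptor of the T cell receptor complex, fell from 473, 412 and 573 to 0 in all 3 libraries, at least 137-fold lower, and was at 37.3, 0 and 9.49 in Flica- cells. Syde1, which encodes a GTPase-activating protein, was at 268, 209.5 and 209 in the controls and 0 in Flica+ cells, at least 64.5-fold lower. Rapgef4os2 lies antisense to Rapgef4, and since the strand setting of the counting is not given, their reads cannot be told apart with certainty. Rapgef4 itself was at 1761, 1666 and 1703 in controls, 10.7, 13.1 and 22.4 in Flica- and 8.21, 1.18 and 0 in Flica+ cells. Most of these 10 were near 0 in Flica- cells too, Lypd6b at 0, 7.46 and 0 and Klra13-ps at 5.33, 3.73 and 0.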

How the data were processed

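Whole-number raw counts of 15 libraries, deposited by the authors without normalization in 4 tables of differentially expressed genes, were joined by gene identifier. The submitters' processing notes name STAR 2.7.1a, GRCm38 and DESeq2, and the counting tool and its strand setting are not given in the sources used here. The authors' mean of normalized counts, a signal deposited with each gene, was used to solve for 1 size factor per library (largest relative error 6.1e-15). The other deposited columns and tables (fold changes, p-values and enriched terms) hold the authors' own comparisons and were not used. In each table the authors' adjusted p was below 0.05 and their log2 fold change beyond 2 in either direction.

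Of 4567 genes, 4423 had a symbol. The 3 Flica+ libraries were fitted with the 3 control or the 3 Flica- libraries in edgeR 4.0.16 (R 4.3.3, limma 3.58.1; filterByExpr, robust quasi-likelihood test, the authors' size factors as library sizes), with Benjamini-Hochberg adjustment over the tested listed genes and a two-sided call at 0.05. Since the full gene table was not analysed here, the adjustment is over selected genes, and the listed counts are not the depth of a library. A gene with 0 counts in a group was compared with a floor of 3 counts per library, which covers counting error only. Alternatives included TMM over the listed genes and DESeq2 1.42.0. The model was tested on simulated counts of 4564 genes, of which 200 were given a 4-fold change. Of these, 183 were tested and 72 were called, all in the right direction, beside 5 false calls. Where the average count reached 50, the model found 69 of 112. A gene that did not pass may therefore still differ. The simulation changed a far smaller share of genes than the 75.0% called in the data, so its counts need not hold for this comparison. The members and gene lists were chosen with earlier results of these data known. In each list the text names from the 4 members with the highest mean, up to 3 of the rest with the largest change at a mean of at least 100, and members called against the majority, then the 10 largest rises and falls and the 10 most abundant genes of each group. Batf3, Ccr7, Cd69, Cd79a, Ctsw, Dut, Foxo1, Gzmm, H2-DMb1, Ifng, Il6ra, Il7r, Irf8, Klra17, Lef1, Pdlim4, Ramp1, Srgn, Treml2, mt-Nd5 and mt-Nd6 were named after their values were seen. Some members that the rule names are not reported here. Promoters are from RefSeq (GRCm38.p6). Tables and plots used Python 3.11.15 with pandas 2.3.3, numpy 2.4.6 and matplotlib 3.10.9.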

Additional observations from a re-analysis of the deposited data

Results flagged for a closer look

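Some named genes had all 3 Flica+ libraries above and all 3 Flica- libraries below the controls, with the Flica+ values called against both groups. The values below are log2 differences between Flica+ and Flica- cells by edgeR, and whether Flica- cells differed from controls was not tested. They were 3.95 for mt-Nd1, 3.80 for mt-Co2, 2.32 for mt-Nd5 and 2.35 for mt-Nd6. The nuclear copies of mitochondrial genes gave 3.69 for Gm10925, 3.80 for Gm28661, 3.76 for Gm28437 and 3.62 for Gm29216, and share reads with the mitochondrial genes. Pfkfb4, a regulator of glycolysis, gave 3.77, Igkc, the κ light chain constant region, 3.38 and Vwf 7.01 from few counts. With TMM scaling 4 of these genes were not called against controls, mt-Nd5 and mt-Nd6 at log2 fold changes of -0.38 and -0.24, below the controls, and Pfkfb4 and Igkc at 0.11 and 0.057 (edgeR adjusted p = 0.78 and 0.90). H2-DMb1, whose TMM value is not reported here, had the same pattern at 3.86. In the same libraries the neutrophil list summed to 14592 to 23641 normalized counts in Flica- and 247462 to 514458 in Flica+ cells, and its part in these differences was not tested.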

How the results depend on the processing

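The number of genes called between Flica+ and control cells stayed within 1.5 times of the 2772 reported under every alternative, from 2110 of 2393 genes with a mean of at least 50 to 3187 of 4564 without a count filter, with 3026 by DESeq2. Leaving out 1 library gave 2553 to 3059 genes against controls and 755 to 1080 against Flica- cells. The second comparison fell from 1040 to 665 genes at an adjusted p below 0.01 and to 665 when adjusted over 5 times as many tests. Scaling by the listed genes, which have rows because they differed and so cannot settle a direction, turned the sign of some named genes. With TMM and with median of ratios their log2 fold changes were -0.23 and -0.21 (Nkg7), -0.45 and -0.43 (Srgn), -0.48 and -0.42 (Ly6c2), -0.32 and -0.29 (Il2rb), -0.86 and -0.83 (Racgap1), -0.096 and -0.087 (Cxcr6), -0.53 and -0.52 (Cxcr3), -0.38 and -0.36 (mt-Nd5), -0.24 and -0.21 (mt-Nd6), -1.81 and -1.79 (Ctsw), -1.79 and -1.75 (Cd69), -1.83 and -1.77 (H2-Aa) and -1.47 and -1.44 (H2-Ab1). With TMM 16 more named genes lost their call against controls without changing sign, Gapdh, H1f2, H2bc4, Id2, Igkc, Il18r1, Irf8, Itgb1, Itgb3, Klrk1, Mcm5, Ndufb9, Nr4a1, Pfkfb4, Pgam1 and Tpi1, with log2 fold changes from 0.057 (Igkc) to 1.89 (H2bc4). Values near 0 changed sign when single libraries were left out, over ranges of -0.13 to 0.098 (Cd74, above 0 without control replicate 1), -0.053 to 0.22 (Ctsw, below 0 without Flica+ replicate 2), -0.096 to 0.36 (Cd69, below 0 without Flica+ replicate 1 or control replicate 3) and -0.080 to 0.37 (H2-Aa, below 0 without Flica+ replicate 2 or control replicate 3). The globins ranged from -0.62 to 3.35 (Hba-a1), -0.60 to 3.34 (Hba-a2), -0.46 to 3.36 (Hbb-bs) and -0.36 to 3.38 (Hbb-bt), lowest without Flica+ replicate 1 and highest without Flica+ replicate 3, while DESeq2 called all 4 higher (adjusted p from 0.032 to 0.034). Deviations from the group means of libraries with the same number correlated at -0.0999, -0.0165 and -0.0545 between Flica+ and control. Those with other numbers correlated there at -0.00845 to 0.0800. Between the gates the same numbers gave 0.168, 0.0321 and 0.0813, all above 0, and other numbers -0.118 to 0.0493. The labels do not say whether a number stands for 1 sort. The main tests did not take the numbers as pairs, so a pairing between the gates may have been left out. With the replicate number as a block, 2178 genes were called against controls and 1086 between the gates. Of the genes named in the text, H2-DMb1 left aside, Il5ra, Ciita, Mx2, Usp18 and Klra8 lost their call. The tables hold selected genes only, so the number of reads per library, and with it what a count of 0 allows as a share of the library, is unknown. The floor of 3 counts limits the folds given as lower bounds.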
